A study of Mus musculus with 6 samples.

Results

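The genes described here are the 4 keratins of simple epithelia Krt8, Krt18, Krt19 and Krt7, with Upk3a, a protein of the bladder lining, in RNA from the cranial base of mouse embryos. They were picked by symbol, 5 entries of a table of 43496, each symbol standing once in the table, and the choice was made with their levels in mutants and controls already known. Their difference between genotypes is therefore given as a description, with no p-value. The tissue was dissected from C57BL/6J embryos at E15.5, late in gestation. There were 3 Memo1 mutant embryos, which carried an allele made with the mutagen ENU, and 3 control embryos, with 1 library each. The labels do not say which base the allele changes or what other genotype the controls had, and the comparison asked what differs in mutant cranial base. Values are FPKM, fragments scaled to the length of the gene and the size of the library, which adjust for gene length, so levels of different genes can be set side by side.

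Keratins build the intermediate filaments of epithelial cells. A filament needs a type I chain paired with a type II chain, and in simple, single-layered epithelia the pair is Krt8, of type II, with Krt18, of type I. Krt19 is a further type I keratin, which lacks most of the tail domain, and Krt7 a further type II keratin, found mostly in ducts and glands. Upk3a is a uroplakin, a membrane protein that pairs with Upk1b in the plaques on the bladder surface. The cranial base is mainly cartilage, and epithelium of the nasopharynx, the pituitary and the inner ear lies against it.

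The 4 members with an entry among the RefSeq promoters of GRCm38.p6 are all on chromosome 15, where Krt8 and Krt18 are next to each other. Their promoters are shown because the 4 genes were all lower in mutants and because the same motif was present in each of them. Each sequence runs from 250 bases before to 50 bases after the annotated start, on the strand of the gene. They lie at chr15:102004293-102004592 on the minus strand for Krt8, and on the plus strand at chr15:102027966-102028265 for Krt18, chr15:101412153-101412452 for Krt7 and chr15:85016891-85017190 for Upk3a. Capitals mark every match, on either strand, to any of the 6 motifs searched.
Krt8: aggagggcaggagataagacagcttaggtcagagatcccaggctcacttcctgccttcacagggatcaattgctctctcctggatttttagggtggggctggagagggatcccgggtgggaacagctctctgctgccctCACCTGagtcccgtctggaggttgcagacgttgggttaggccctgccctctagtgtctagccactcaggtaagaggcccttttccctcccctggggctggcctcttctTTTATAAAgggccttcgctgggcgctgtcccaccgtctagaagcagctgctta
Krt18: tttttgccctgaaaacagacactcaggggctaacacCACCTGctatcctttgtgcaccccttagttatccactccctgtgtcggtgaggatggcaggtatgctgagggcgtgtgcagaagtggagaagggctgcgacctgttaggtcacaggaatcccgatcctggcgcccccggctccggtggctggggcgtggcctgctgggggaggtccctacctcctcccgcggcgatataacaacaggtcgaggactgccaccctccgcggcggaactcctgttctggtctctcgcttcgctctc
Krt7: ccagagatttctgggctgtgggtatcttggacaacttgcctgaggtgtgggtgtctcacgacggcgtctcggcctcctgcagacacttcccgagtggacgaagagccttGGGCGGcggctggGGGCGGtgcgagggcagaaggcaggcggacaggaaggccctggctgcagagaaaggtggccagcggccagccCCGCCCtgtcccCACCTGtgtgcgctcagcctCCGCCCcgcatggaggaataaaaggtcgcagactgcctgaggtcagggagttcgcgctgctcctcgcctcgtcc
Upk3a: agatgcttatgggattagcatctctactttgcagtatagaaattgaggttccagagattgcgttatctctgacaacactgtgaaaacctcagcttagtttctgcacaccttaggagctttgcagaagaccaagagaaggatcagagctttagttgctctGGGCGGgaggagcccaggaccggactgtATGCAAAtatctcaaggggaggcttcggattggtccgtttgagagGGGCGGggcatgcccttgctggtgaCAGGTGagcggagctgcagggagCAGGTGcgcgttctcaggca

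The motif present in 4 of 4 was the E-box CAGGTG, the form that repressors of the Snail and Zeb families can bind, written CACCTG where it lies on the other strand. Of all 32851 promoters of this length 20.2% held it. Krt8, Krt18 and Krt7 had 1 match each and Upk3a had 2. The GC box GGGCGG was present in 2 of 4, Krt7 with 4 matches and Upk3a with 2, and in 35.7% of all promoters. The TATA box TATAAA was present in Krt8 alone of the 4, across the annotated start and overlapping a second match on the other strand, and in 13.6% of all promoters. The octamer TTTGCAT was present in Upk3a alone of the 4 and in 4.63% of all promoters. Neither AACCGG, a part of the Grainyhead-like site, nor the AP-1 sites TGAGTCA and TGACTCA stood in these 4 windows, against 6.83% and 5.20% of all promoters. As the shared E-box was a reason for showing these promoters, its presence in 4 of 4 is a description and not a test. A match is a match of letters and says nothing of binding, and a link between motif and level was not tested.

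The libraries did not carry equal information. Mutant 1 listed 3447 of the 15710 tested genes at 0, which is 21.9%, against 38 to 68 such genes in the other 5 libraries. Across genes its r with any other library was 0.748 to 0.762 on the log2 scale, while each of the other 5 reached at least 0.980 with its closest library. The steps between low values put the depth of mutants 2 and 3 and controls 2 and 3 at 117%, 152%, 80.2% and 93.4% of that of control 1, and mutant 1 had too few steps to give a depth. Among values above 0, the lowest 5% ended at 1.87 FPKM in mutant 1, against 0.0258 to 0.0364 FPKM in the other 5 libraries. Low levels were thus scarcely recorded in mutant 1, and a 0 there is not read as absence of the RNA. The cause of its zeros was not tested. For these reasons, changes of the members that depend on mutant 1 are shown both with that library and without it. For other genes this is done only in part.

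All 5 genes were lower in the mutants, and in each of them every mutant lay below every control. Such a separation, lower in mutants, was present in 11.9% of the tested genes. In bulk tissue, fewer epithelial cells and less keratin RNA per cell cannot be told apart. The shortfall was largest for Upk3a and Krt19 and smallest for Krt18 among the 4 genes detected in every library.

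Krt8, the type II chain of the basic simple-epithelial pair, had 41.6, 41.1 and 39.0 FPKM in mutants 1, 2 and 3, against 71.0, 63.3 and 75.6 FPKM in controls 1, 2 and 3. The mutants lay close together and well below the lowest control, control 2. Krt8 averaged 40.6 ± 1.35 FPKM in mutants and 70.0 ± 6.19 FPKM in controls (SD, n = 3 each), so the mutant mean was 58.0% of the control mean (log2 change -0.77, SE 0.11).

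Krt18, its type I partner, had 48.7, 36.6 and 32.3 FPKM in mutants 1, 2 and 3, against 57.0, 52.8 and 53.0 FPKM in controls 1, 2 and 3. Mutant 1 was the highest of the mutants and lay just under control 2, the lowest control. Krt18 averaged 39.2 ± 8.49 FPKM in mutants and 54.3 ± 2.35 FPKM in controls (SD, n = 3 each), which was 72.2% of the control mean with all mutants and 63.5% without mutant 1. The log2 change was -0.48 (SE 0.17), and -0.64 (SE 0.087) without mutant 1.

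Krt19, the type I keratin without a full tail, was the most abundant of the 5 in every control. It had 48.2, 49.3 and 47.5 FPKM in mutants 1, 2 and 3, against 98.4, 93.1 and 99.0 FPKM in controls 1, 2 and 3. Both groups were tight, with a coefficient of variation of 1.91% in mutants and 3.35% in controls, and the gap between them was wider than the range of either. Krt19 averaged 48.4 ± 0.924 FPKM in mutants and 96.9 ± 3.24 FPKM in controls (SD, n = 3 each), so mutants had 49.9% of the control mean (log2 change -0.99, SE 0.086).

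Krt7, the type II keratin of ducts and glands, was listed at 0 in mutant 1 and had 10.5 and 10.5 FPKM in mutants 2 and 3, against 13.5, 11.9 and 16.9 FPKM in controls 1, 2 and 3. Mutants 2 and 3 were only slightly below control 2, the lowest control. Of the 3168 tested genes with a control mean from 10 to 20 FPKM, 304 (9.60%) were listed at 0 in mutant 1, against 1 in any of the other libraries. Mutants 2 and 3 had 74.4% of the control mean. The log2 change was -1.56 (SE 0.995) with mutant 1 and -0.38 (SE 0.15) without it, and the size for Krt7 thus rests on 1 library.

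Upk3a, the uroplakin, had 9.21, 10.03 and 12.4 FPKM in mutants 1, 2 and 3, against 24.2, 21.3 and 23.9 FPKM in controls 1, 2 and 3. The highest mutant, mutant 3, was far below the lowest control. Upk3a averaged 10.5 ± 1.64 FPKM in mutants and 23.1 ± 1.58 FPKM in controls (SD, n = 3 each), so mutants had 45.5% of the control mean (log2 change -1.07, SE 0.15).

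**Figure D1:**
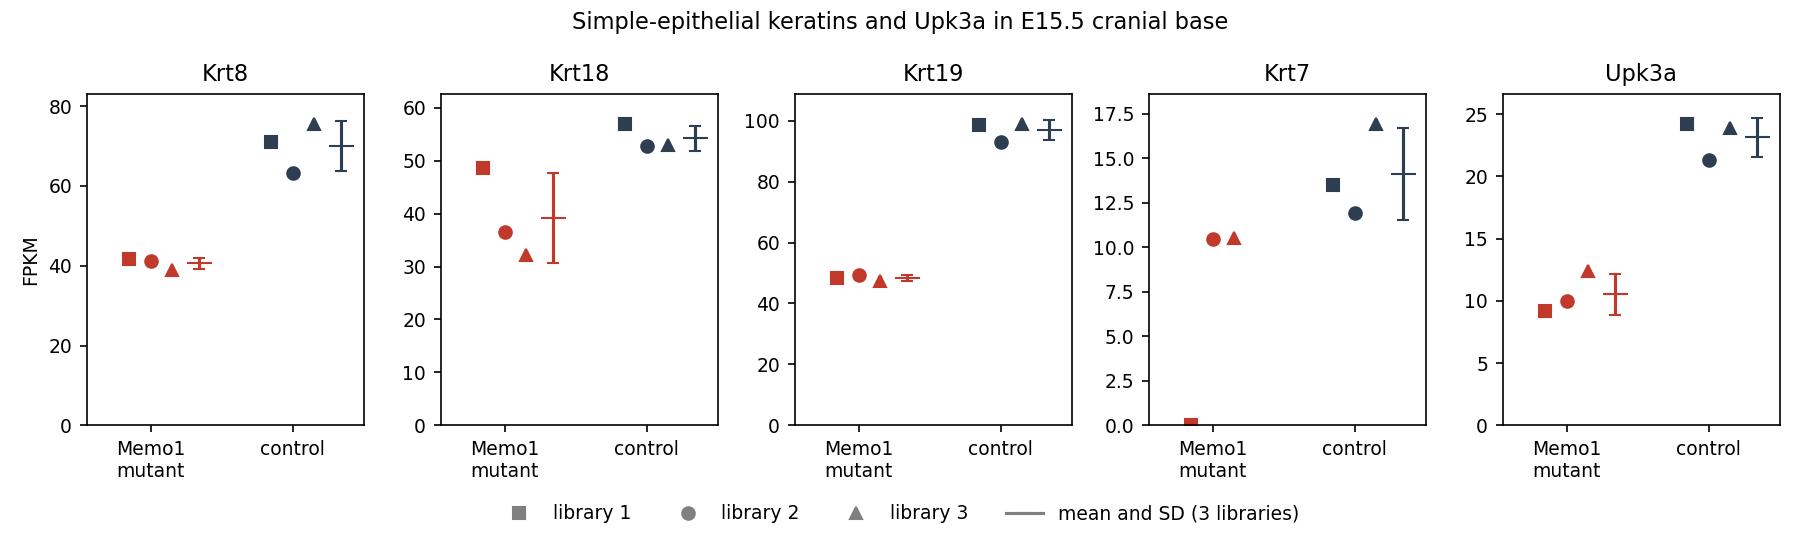
Level of each gene in FPKM (vertical axes, starting at 0) in the 3 Memo1 mutant and 3 control libraries, with symbols for single libraries and bars for the mean and SD of 3 libraries, left out for Krt7 in mutants because mutant 1 is listed at 0. In every panel all mutants lie below all controls, with Krt19 at 47.5 to 49.3 FPKM in mutants against 93.1 to 99.0 FPKM in controls.

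With equal weight for each library, limma called 0 of 15710 genes at a Benjamini-Hochberg adjusted p of 0.05, none of the 5 among them, and 805 genes had an unadjusted p under 0.05. With array weights, limma's estimate of how far each library strays from its group, mutant 1 counted 0.0329 and each other library 1.47 to 2.76. Then 207 tested genes (1.32%) were called lower in mutants and 113 (0.719%) higher, and Krt8, Krt18, Krt19 and Upk3a were 4 of the 207. Without mutant 1, 5 genes (0.0318%) were called lower, of which Krt19 was 1. Because the 5 were chosen with this contrast known, nothing is read from these counts. Every adjusted p printed below from array weights, named weighted, is the lowest that gene reached under the alternatives, and the highest was 0.872, or 0.989 for Dsp. Without mutant 1, a change as low as that of Upk3a or lower was found in 1.01% of tested genes. For Krt19, Krt8, Krt18 and Krt7 this share was 1.02%, 1.80%, 2.51% and 6.29%. With all libraries the shares were 5.93% for Upk3a, 7.15% for Krt19, 11.4% for Krt8, 20.6% for Krt18 and 1.78% for Krt7. As the genes were chosen with these values known, the shares are a description and not a test.

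The order of the levels differed between the genotypes. In controls it was Krt19, Krt8, Krt18, Upk3a and Krt7, and no neighbouring pair in this order overlapped between libraries. In mutants Krt19, Krt8 and Krt18 lay close together. The Krt18 range of 32.3 to 48.7 FPKM in mutants took in all Krt8 values and overlapped those of Krt19, while Krt8 stayed below Krt19 in every mutant. Upk3a and Krt7 could not be ranked in mutants, at 9.21 to 12.4 FPKM and at 0, 10.5 and 10.5 FPKM.

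The ratio of Krt8 to its main partner overlapped between the groups, while that of Krt8 to Krt19 did not. The ratio of Krt8 to Krt18 was 0.854, 1.12 and 1.21 in mutants 1, 2 and 3, against 1.25, 1.20 and 1.43 in controls 1, 2 and 3. Mutant 3 was above control 2, so the groups overlapped, with mutant 1 lowest. The ratio of Krt8 to Krt19 was 0.839 ± 0.0208 in mutants and 0.721 ± 0.0417 in controls (SD, n = 3 each), higher in every mutant than in every control. The sum of the type II chains Krt7 and Krt8 over the sum of the type I chains Krt18 and Krt19 was 0.55 ± 0.11 in mutants and 0.556 ± 0.0476 in controls (SD, n = 3 each). For this ratio the direction of the log2 difference (-0.031) turned to 0.14 without mutant 1 and to 0.036 without control 3. The sum of all 4 keratins was 138, 138 and 129 FPKM in mutants 1, 2 and 3, against 239.9, 221 and 245 FPKM in controls 1, 2 and 3.

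Krt19 made up a smaller part of that sum in mutants. Its share was 34.8%, 35.9% and 36.7% in mutants 1, 2 and 3, against 41.0%, 42.1% and 40.5% in controls 1, 2 and 3, with no overlap. The share of Krt8 was 30.0% ± 0.15 in mutants and 29.7% ± 1.14 in controls (SD, n = 3 each), and the groups overlapped. The share of Krt18 was 35.1%, 26.6% and 25.0% in mutants 1, 2 and 3, each above the controls at 23.8%, 23.9% and 21.7%.

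Epcam and Cdh1, adhesion molecules that mark epithelial cells, were not lower in the mutants. Epcam had 22.7, 25.7 and 16.0 FPKM in mutants 1, 2 and 3, against 19.2, 23.2 and 13.2 FPKM in controls 1, 2 and 3, and the groups overlapped (log2 change 0.21, SE 0.27, limma adjusted p = 0.723). Cdh1 had 27.6, 19.9 and 20.9 FPKM in mutants 1, 2 and 3, against 21.5, 18.5 and 17.0 FPKM in controls 1, 2 and 3, also overlapping (log2 change 0.24, SE 0.17, limma adjusted p = 0.695). Both genes passed under none of the alternatives, and the sign of Epcam turned without control 3.

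Relative to Epcam in the same library, Krt8, Krt18 and Krt19 were lower in every mutant than in every control. The ratio of Krt19 to Epcam was 2.13, 1.92 and 2.97 in mutants 1, 2 and 3, against 5.13, 4.02 and 7.50 in controls 1, 2 and 3. The ratio of Krt8 to Epcam was 1.83, 1.60 and 2.44 in mutants 1, 2 and 3, against 3.70, 2.73 and 5.73 in controls 1, 2 and 3. Control 3 was highest in both, as it had the least Epcam. Mutant 2 and control 2 were the lowest of their groups in both and had the most Epcam. These 2 libraries also held the most pituitary genes, with sums of 143 and 116 FPKM. The part of neighbouring epithelium in the Epcam level was not tested. For Krt18 the ratio was 1.86 ± 0.387 in mutants and 3.09 ± 0.876 in controls (SD, n = 3 each), and the gap was narrow, from 2.15 in mutant 1 to 2.28 in control 2.

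**Figure D2:**
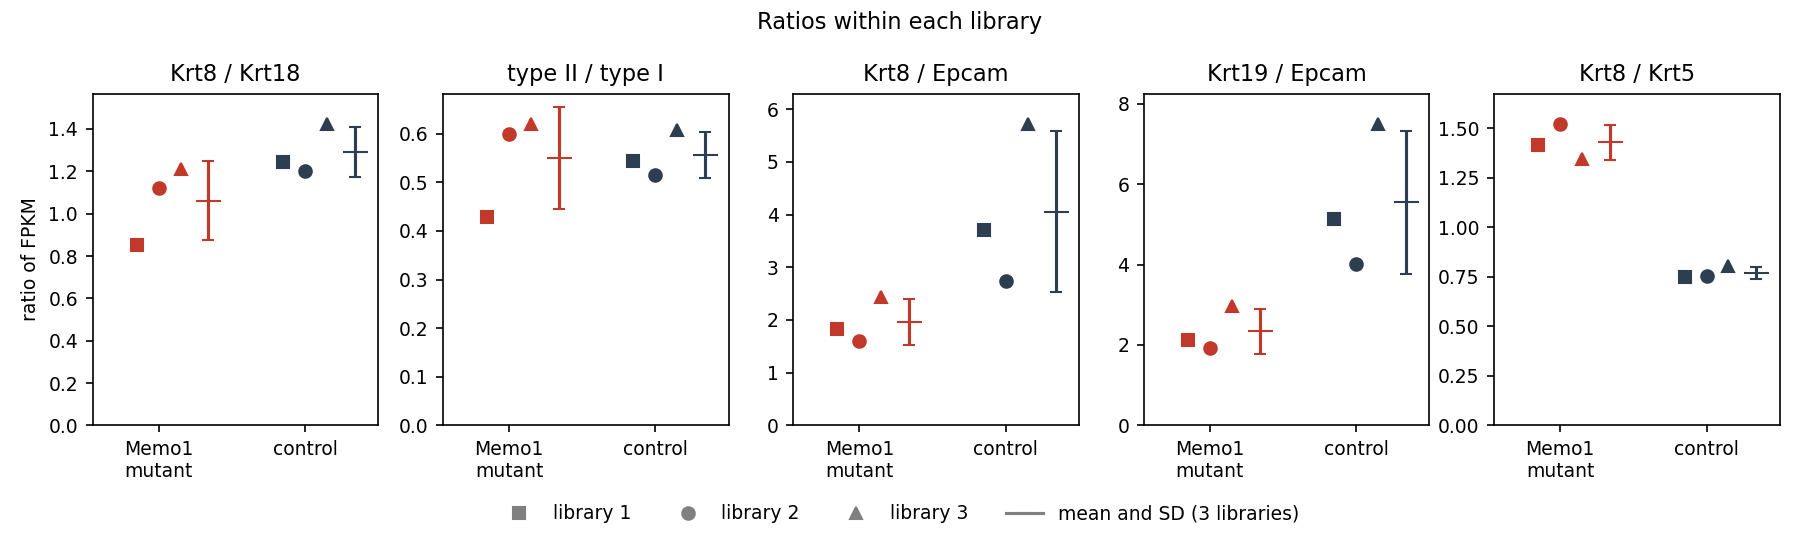
Ratios of FPKM within each library (vertical axes, starting at 0) for Memo1 mutants and controls, with symbols for single libraries and bars for the mean and SD of 3 libraries; type II is Krt7 + Krt8 and type I is Krt18 + Krt19. The first 2 panels overlap between groups, Krt8 and Krt19 per Epcam are lower in all mutants, and Krt8 per Krt5 is higher in all mutants, at 1.35 to 1.52 against 0.747 to 0.806 in controls.

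The other keratins of simple epithelia were low in controls. Krt23 was listed at 0 in mutant 1 and had 0.867 and 0.806 FPKM in mutants 2 and 3, against 2.16, 1.58 and 1.74 FPKM in controls 1, 2 and 3. Krt80, the neighbour of Krt7 on the chromosome, had 10.6, 4.30 and 3.32 FPKM in mutants 1, 2 and 3, against 3.59, 3.74 and 4.02 FPKM in controls 1, 2 and 3, and only mutant 1 stood apart. Krt20, the keratin of intestinal and bladder surface cells, and Krt222 had means under 1 FPKM and were not tested. Of the list of 4, 2 were tested and 0 passed with equal or array weights.

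The other uroplakins held the partner of Upk3a. Upk1b had 15.9, 8.41 and 8.34 FPKM in mutants 1, 2 and 3, against 11.7, 10.7 and 10.9 FPKM in controls 1, 2 and 3. Mutants 2 and 3 were below all controls and mutant 1 above them (log2 change -0.08, SE 0.27, limma adjusted p = 0.882), and the sign turned without mutant 2 or mutant 3. Upk3bl, a relative of Upk3a, was listed at 0 in mutant 1 and had 9.05 and 12.9 FPKM in mutants 2 and 3, against 16.0, 16.0 and 17.0 FPKM in controls 1, 2 and 3. Upk2 was listed at 0 in mutant 1 and had 1.68 and 2.17 FPKM in mutants 2 and 3, against 2.10, 2.44 and 2.76 FPKM in controls 1, 2 and 3. Upk1a stayed under 0.3 FPKM in all libraries, and Upk3b was listed at 0 in the mutants and at most 0.15 FPKM in controls. Of the 5 uroplakins 3 were tested and 0 passed with equal or array weights. All 3 were below 0, with a median log2 change of -0.75 against -0.046 over all tested genes. With equal weights 54.2% of all tested genes were below 0, the share to set beside each such count further on. Of the 3 tested uroplakins, Upk2 and Upk3bl were listed at 0 in mutant 1. Their median over all 3 was -0.37 without mutant 1 and -0.36 with array weights.

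The keratins of basal and stratified epithelia were mostly lower in the mutants too. Of 14 on the list 9 were tested, with 0 passing with equal weights, 6 falling with array weights and 1, Krt5, without mutant 1. Their median log2 change was -0.99, or -0.87 without mutant 1, and the summed level of the list was 294.9, 274 and 301.8 FPKM in mutants 1, 2 and 3, against 571, 575 and 614 FPKM in controls 1, 2 and 3. Krt5, the basal type II keratin, had 29.3, 27.0 and 29.0 FPKM in mutants 1, 2 and 3, against 95.0, 83.8 and 93.8 FPKM in controls 1, 2 and 3, and no value was shared between the groups. The ratio of Krt8 to Krt5 was 1.43 ± 0.0895 in mutants and 0.769 ± 0.0316 in controls (SD, n = 3 each), with no overlap.

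Among the basal and stratified keratins the weighted limma adjusted p was 8.41e-04 for Krt5, 0.0103 for Krt6a and 0.0201 for Krt15, which lies next to Krt19 on chromosome 11. Krt13 and Krt4, the pair of the suprabasal layers of mucosa, were listed at 0 in mutant 1. Krt13 had 6.17 and 11.8 FPKM in mutants 2 and 3, against 44.2, 42.4 and 64.9 FPKM in controls 1, 2 and 3. Krt4 had 3.82 and 8.30 FPKM in mutants 2 and 3, against 19.0, 22.1 and 26.1 FPKM in controls 1, 2 and 3. Their weighted limma adjusted p were 0.0223 and 0.0376.

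Proteins that anchor or process keratin filaments lay on both sides of 0. Of 18 on the list 17 were tested, 0 passed with equal weights and 2 fell with array weights, Pkp1 and Dsp, with a median log2 change of -0.12. Pkp1, a plakophilin of desmosomes, had 3.73, 4.05 and 3.68 FPKM in mutants 1, 2 and 3, against 9.03, 7.47 and 8.25 FPKM in controls 1, 2 and 3 (weighted limma adjusted p = 0.0211). Dsp, desmoplakin, which ties keratin filaments to desmosomes, had 25.0, 7.96 and 7.44 FPKM in mutants 1, 2 and 3, against 12.4, 12.4 and 11.1 FPKM in controls 1, 2 and 3 (weighted limma adjusted p = 0.0491). Mutant 1 was the highest library for Dsp and the other mutants the lowest, and with equal weights the log2 change was -0.05 (SE 0.46). Dsc2, a desmosomal cadherin, had 3.99 ± 0.253 FPKM in mutants and 5.84 ± 0.632 FPKM in controls (SD, n = 3 each). Sfn, a 14-3-3 protein of epithelia, had 19.1 ± 11.5 FPKM in mutants and 32.1 ± 3.10 FPKM in controls (SD, n = 3 each). For Sfn the mutants had 59.3% of the control mean, and 79.8% without mutant 1. Neither Dsc2 nor Sfn passed (limma adjusted p = 0.695 each with equal weights, 0.144 and 0.203 with array weights).

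Genes of epithelial adhesion and polarity overlapped between the groups as a list. All 22 were tested and 13 were below 0, against 54.2% of all tested genes. With equal weights, with array weights or without mutant 1, 0 passed. The summed level of the list was 268, 261 and 199 FPKM in mutants 1, 2 and 3, against 266, 251 and 223 FPKM in controls 1, 2 and 3, and 6 tested genes were listed at 0 in mutant 1. Lsr, a protein of tricellular junctions, had 18.2, 18.9 and 16.7 FPKM in mutants 1, 2 and 3, against 12.3, 13.2 and 10.5 FPKM in controls 1, 2 and 3, with every mutant above every control (weighted limma adjusted p = 0.0674). Tjp3, a tight junction scaffold, had 4.21 ± 1.38 FPKM in mutants and 6.29 ± 1.32 FPKM in controls (SD, n = 3 each) and overlapped.

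Of 20 transcription factors of epithelia 18 were tested, and 14 were below 0, against 54.2% of all tested genes. Of the 18, 5 were listed at 0 in mutant 1. With equal weights 0 passed, and with array weights 1 fell. That was Trp63, the p63 factor of basal cells, at 1.85, 3.43 and 2.66 FPKM in mutants 1, 2 and 3, against 7.08, 6.28 and 6.05 FPKM in controls 1, 2 and 3 (weighted limma adjusted p = 0.0269). Ehf, an ETS factor of epithelia, had 4.77, 14.6 and 13.6 FPKM in mutants 1, 2 and 3, against 21.4, 15.9 and 16.7 FPKM in controls 1, 2 and 3, without overlap and without passing (weighted limma adjusted p = 0.249). Tfap2c was listed at 0 in mutant 1 and had 1.27 and 1.35 FPKM in mutants 2 and 3, against 3.08, 1.64 and 1.56 FPKM in controls 1, 2 and 3.

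**Figure D3:**
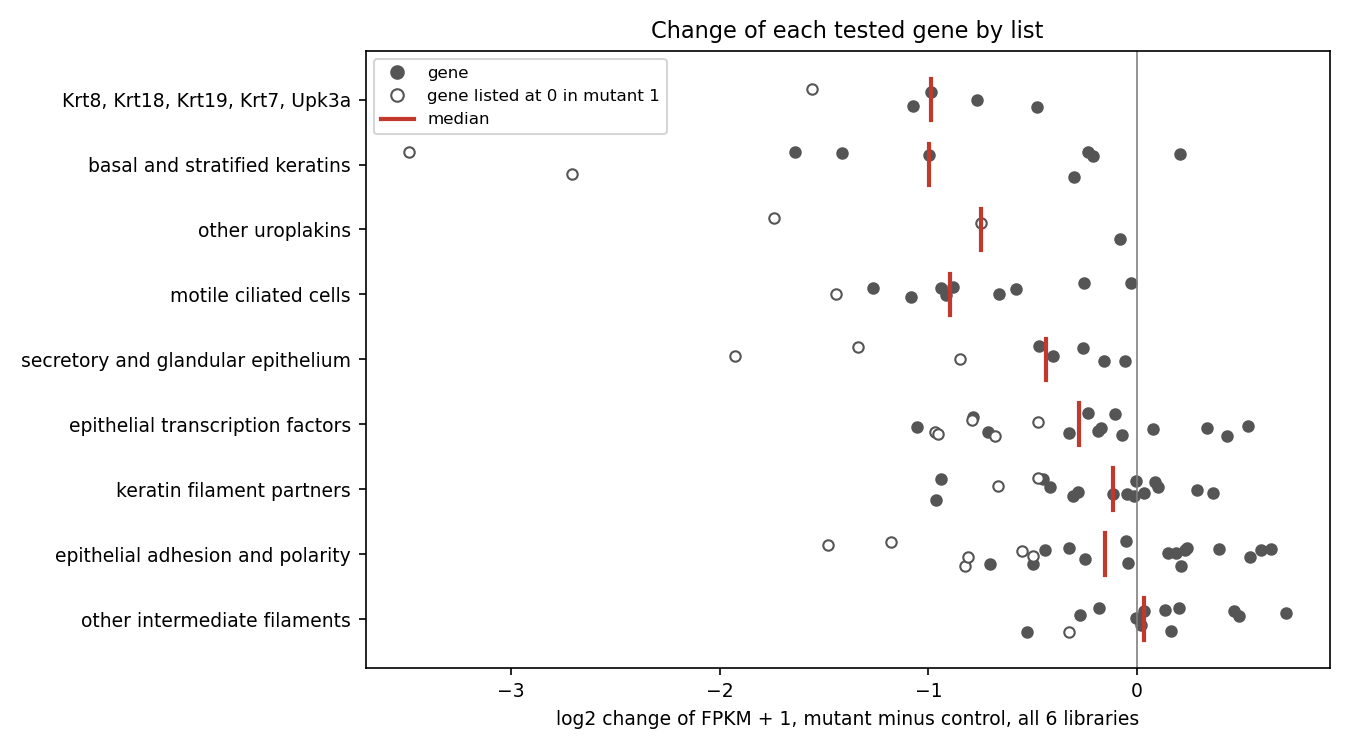
Log2 change of FPKM + 1, mutant minus control, with all 6 libraries (horizontal axis) for each tested gene of the epithelial and filament lists; open circles are genes listed at 0 in mutant 1 and red lines are medians. The keratins, uroplakins and cilia genes lie mostly left of 0, with medians of -0.99 for the 5 genes described here and -0.99 for the basal keratins, while the adhesion genes spread to both sides.

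Of the tested genes of airway epithelium, 8 of 10 ciliated genes and 3 of 8 secretory genes were lower in every mutant than in every control. Such a separation was present in 11.9% of all tested genes. Of 14 genes of motile ciliated cells 10 were tested, all 10 were below 0 (median log2 change -0.90), 0 passed with equal weights and 5 fell with array weights. Their summed level was 290.4, 267 and 248 FPKM in mutants 1, 2 and 3, against 444, 335 and 468 FPKM in controls 1, 2 and 3, with no overlap, and 1 tested gene, Sntn, was listed at 0 in mutant 1. Dnali1, a dynein light chain, had 5.60 ± 1.13 FPKM in mutants and 15.1 ± 3.83 FPKM in controls (SD, n = 3 each, weighted limma adjusted p = 0.0432). Foxj1, the factor that defines motile ciliated cells, had 75.7, 53.8 and 49.8 FPKM in mutants 1, 2 and 3, against 64.1, 50.4 and 66.7 FPKM in controls 1, 2 and 3, and the groups overlapped (log2 change -0.028, SE 0.20, limma adjusted p = 0.945). Of 20 genes of secretory and glandular epithelium 8 were tested, all below 0 (median log2 change -0.44), and 1 fell with array weights. That was Cyp2f2, an enzyme of airway secretory cells, at 44.0 ± 5.62 FPKM in mutants and 61.2 ± 5.95 FPKM in controls (SD, n = 3 each, weighted limma adjusted p = 0.0441). The summed level of the secretory list was 92.7, 95.9 and 77.0 FPKM in mutants 1, 2 and 3, against 150.5, 110.1 and 122 FPKM in controls 1, 2 and 3. Of its 20 genes 2, Scgb1a1 and Tff3, were listed at 0 in all libraries, while others were detected. Bpifa1 was listed at 0 in mutant 1 and had 16.8 and 5.32 FPKM in mutants 2 and 3. In controls 1, 2 and 3 it had 28.7, 14.5 and 12.5 FPKM, and the groups overlapped. Of the 8 tested secretory genes 3, Bpifa1 among them, were listed at 0 in mutant 1. The part of these cell types in the keratin levels was not tested.

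**Figure D4:**
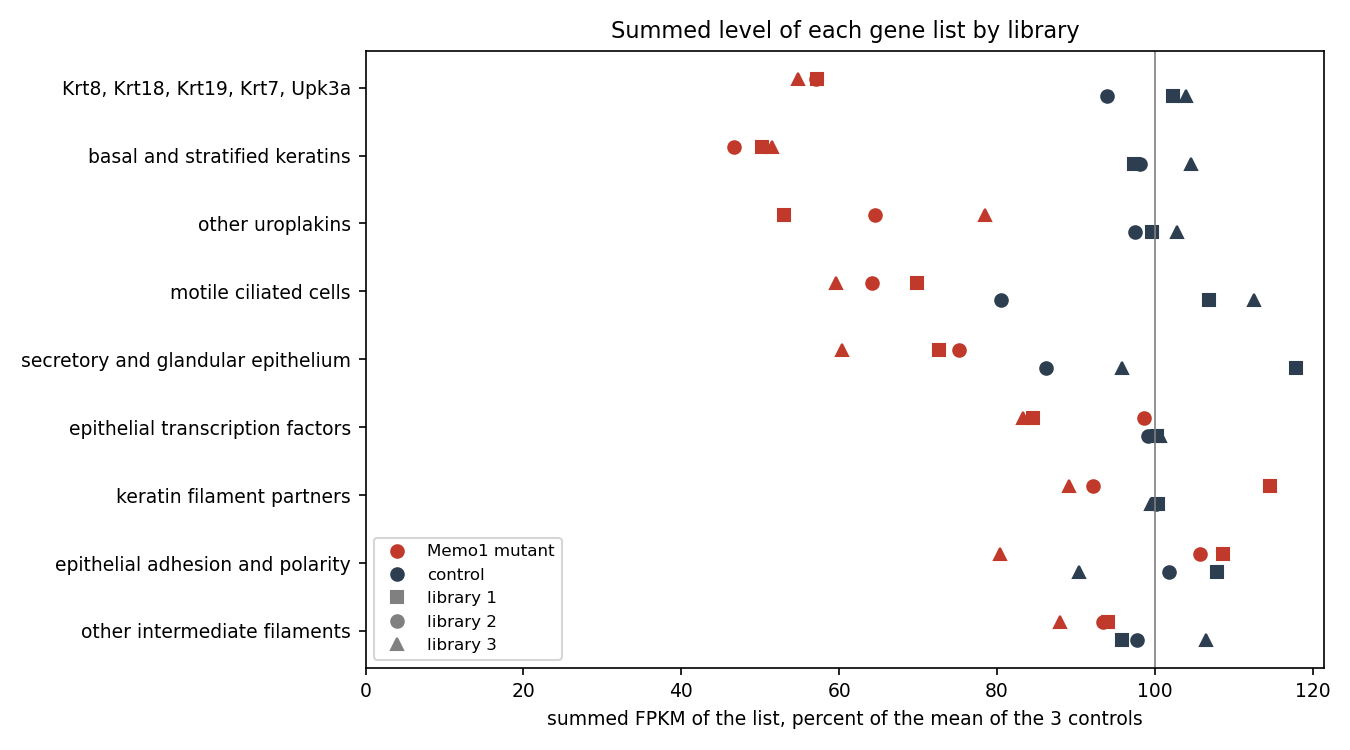
Summed FPKM of each gene list in each library, as a percent of the mean of the 3 controls (horizontal axis, starting at 0), for Memo1 mutants (red) and controls (dark). The 5 genes described here, with sums of 142 to 148 FPKM in mutants against 243 to 268 FPKM in controls, the basal keratins and the other uroplakins lie well below 100% in mutants, while the adhesion list overlaps between groups.

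Some neighbouring tissues that also express simple keratins differed between embryos. Genes of the pituitary summed to 15.4, 143 and 21.6 FPKM in mutants 1, 2 and 3, against 23.7, 116 and 25.5 FPKM in controls 1, 2 and 3, so mutant 2 and control 2 held far more of them than the others. Of 13 on that list 7 were tested and 0 passed with equal or array weights, and 5 of the 7 were listed at 0 in mutant 1. Control 2 was also the lowest control for all 5 genes described here. Genes of the inner ear summed to 60.6, 31.9 and 30.4 FPKM in mutants 1, 2 and 3, against 27.9, 94.6 and 22.9 FPKM in controls 1, 2 and 3. Oc90, a protein of the otic fluid crystals, made 53.0 FPKM of the sum in control 2 and at most 0.160 FPKM elsewhere. Dlx5 made 59.4, 23.6 and 19.5 FPKM of the sum in mutants 1, 2 and 3. In controls 1, 2 and 3 its part was 21.2, 19.1 and 17.5 FPKM. As 11 of the 13 genes were listed at 0 in mutant 1, the sum there was almost all Dlx5. Of 13 inner ear genes 3 were tested and 0 passed with equal or array weights.

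Notochord cells, which also carry Krt8, Krt18 and Krt19, were sparsely marked. Noto, a notochord factor, was listed at 0 in all 6 libraries, and T, the defining Brachyury factor, was listed at 0 in mutant 1 and had 1.65 and 0.838 FPKM in mutants 2 and 3, against 0.903, 1.99 and 1.74 FPKM in controls 1, 2 and 3. Of 15 genes on the list 14 were tested, 0 passed with equal weights, and with array weights 1 fell and 2 rose. The one that fell was Car3, a carbonic anhydrase also abundant in fat and muscle, at 132.7 ± 34.9 FPKM in mutants and 332 ± 32.6 FPKM in controls (SD, n = 3 each, weighted limma adjusted p = 0.0159). Car12, another carbonic anhydrase, was 11.3 ± 5.11 FPKM in mutants and 4.98 ± 0.279 FPKM in controls (SD, n = 3 each, weighted limma adjusted p = 0.0348). Without mutant 1 the mutant mean of Car12 was 8.34 FPKM. The summed level of the list was 562.5 to 721 FPKM in mutants and 809.9 to 855 FPKM in controls. Without Car3, an alternative chosen after seeing the data, it was 563, 446 and 469.7 FPKM in mutants 1, 2 and 3, against 519, 473 and 493 FPKM in controls 1, 2 and 3, and the groups overlapped.

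Other intermediate filament genes lay close to 0 on the whole. Of 14 on the list 13 were tested, 5 were below 0 (median log2 change 0.034, or -0.029 without mutant 1), and 0 passed with equal or array weights, while their sum was 1398 to 1496 FPKM in mutants and 1523 to 1693 FPKM in controls. Vim, vimentin of mesenchyme, had 725, 920.1 and 835 FPKM in mutants 1, 2 and 3, against 895, 993 and 1103 FPKM in controls 1, 2 and 3, and the groups overlapped (log2 change -0.27, SE 0.12, limma adjusted p = 0.695). Nefm and Prph, filaments of neurons, had equal-weight log2 changes of 0.71 and 0.47 with overlapping groups, and 0.40 and 0.32 without mutant 1.

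Genes of cartilage and bone also differed in their summed levels. The 12 cartilage genes summed to 5547 to 6478 FPKM in mutants and 3712 to 4980 FPKM in controls, and 3 rose and 0 fell with array weights. The 10 bone genes summed to 1049 to 1539 FPKM in mutants and 1883 to 2707 FPKM in controls, and 0 rose and 3 fell with array weights. The lists of mesenchyme, of endothelium, blood and macrophages, of skeletal muscle and of neurons and glia held 10, 13, 9 and 9 tested genes. With equal or array weights 0 of them were called. The skeletal muscle genes still summed to 2728 to 3277 FPKM in mutants and 3651 to 5200 FPKM in controls. Those of endothelium, blood and macrophages summed to 1918 to 2084 FPKM in mutants and 2234 to 2637 FPKM in controls. The sums for mesenchyme and for neurons and glia overlapped between the groups. The part of tissue composition in the keratin levels was not tested.

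The genes whose levels ran most like the keratins were sought over the 6 libraries, as the highest Pearson r with the mean log2(FPKM + 1) of Krt8, Krt18 and Krt19 among 10247 genes of at least 5 FPKM that were not listed at 0 anywhere. With 6 libraries in 2 genotypes such an r mostly reflects the gap between the genotypes, and it is a description. The closest 8 were Trmt1l (r = 0.996), Krt6a (r = 0.993), Traf3ip1 (r = 0.992), Rpl3-ps1 (r = 0.991), 0610010K14Rik (r = 0.988), Mmp9 (r = 0.987), Krt5 (r = 0.985) and Gm14048 (r = 0.984). The order depended on mutant 1: without it Traf3ip1 ranked 4 and Trmt1l 8, while Krt6a ranked 16 (r = 0.995), Krt5 33 (r = 0.992) and the other 4 from 19 to 61. Traf3ip1, a part of the machinery that carries cargo into cilia, had 8.14, 8.05 and 7.82 FPKM in mutants 1, 2 and 3, against 12.2, 11.2 and 12.1 FPKM in controls 1, 2 and 3. Mmp9, a gelatinase of osteoclasts, had 5.60, 5.93 and 4.40 FPKM in mutants 1, 2 and 3, against 26.0, 19.4 and 31.3 FPKM in controls 1, 2 and 3. Trmt1l differed little in size, at 12.8 to 13.1 FPKM in mutants and 13.9 to 14.0 FPKM in controls. Of the members left out of the mean, Upk3a had r = 0.928 and Krt7 r = 0.416, or 0.819 for Krt7 without mutant 1, while Epcam had r = -0.31 and Cdh1 r = -0.46.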

How the data were processed

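RNA of the cranial base, kept in RNAlater until genotyping, was sequenced from 3 Memo1 mutant and 3 control embryos, per the labels' protocols. The authors deposited 1 table with a value per gene and library, taken as FPKM from the values and from Cufflinks, named without a version beside build mm9 in the submitters' processing notes. For aligner and annotation, the sources used here name none. Entries holding the authors' code for a missing value in any library (15) were left out, and an exact 0 may be a failed estimate. The test was run on log2(FPKM + 1), for genes averaging 1 FPKM or more over the 6 libraries: limma 3.58.1 (R 4.3.3), with lmFit, then eBayes with trend and robust, genotype as the only term, two-sided, Benjamini-Hochberg adjusted over all 15710 genes, threshold 0.05. Fold changes on this scale understate those of low genes. Means include mutant 1. The fit was tested on simulated data.

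The members and the 18 gene lists were chosen with earlier results of these data known. Named from each list were the called members or the 3 with the smallest p, of which some are printed, and all of the 2 lists nearest to the members. Krt5, Krt15, Epcam and Cdh1 were named as epithelial genes of reference, with the 8 genes most like the keratins. Krt13, Krt4, Krt14, Dsp, Noto, T, Foxj1, Scgb1a1 and Tff3 lay outside that rule and were named after their values were seen. Alternatives were array weights, other pseudocounts, filters and scalings, a block, eBayes without trend and robust, and leaving out each library. Depth was read from the spacing of low values. Replicates are separate embryos by their labels, numbered in accession order, and no 2 libraries were copies (at most 0.00641% equal values). 1 gene that the naming rule gave is not reported here.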

Additional observations from a re-analysis of the deposited data

How the results depend on the processing

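The direction of all 5 members held under every alternative run: array weights, a pseudocount of 0.1 or 0.5 FPKM, 2 other scalings and leaving out each library. Leaving out 1 library in turn gave log2 differences of -0.84 to -0.71 for Krt8, -0.64 to -0.35 for Krt18, -1.01 to -0.97 for Krt19, -2.14 to -0.38 for Krt7 and -1.18 to -0.99 for Upk3a, and quantile normalization gave -1.05 for Krt19; the cause was not tested. The number of genes called depended on mutant 1: array weights gave 207 lower and 113 higher, leaving out 1 library gave 0 to 5 lower and 0 to 2 higher, and the other alternatives gave 0. With array weights the calls were 6 among basal keratins (0 to 1 without 1 library), 5 among cilia genes, 3 each among notochord, cartilage and bone genes, 2 among filament partners and 1 each among transcription factors and secretory genes.

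The sign turned for Dsp without mutant 2 (0.19) or 3 (0.24; -0.58 to 0.24 leaving out each library), Upk1b without mutant 2 (0.058) or 3 (0.063; -0.37 to 0.063), Epcam without control 3 (-0.0014; -0.0014 to 0.40), Krt80 with array weights (-0.029) and Foxj1 without control 1 (0.020), control 3 (0.047), mutant 2 (0.034) or mutant 3 (0.089; -0.21 to 0.089 leaving out each library). Without Car3, chosen after seeing the data, the summed notochord list overlapped between the groups. Replicate numbers follow accession order and pair no samples; with the first word of the title as a replicate block (consensus correlation 0.108) 0 genes were called lower and 0 higher, and 915 had an unadjusted p under 0.05. Over the alternatives the limma adjusted p ranged from 8.41e-04 to 0.872 for Krt5 and from 0.504 to 0.999 for Epcam. The 0 of Krt7 in mutant 1 limits any statement on its size.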

Other observations

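Around the members on the chromosome, Eif4b, a translation factor next to Krt18, had 102.7, 118 and 109 FPKM in mutants 1, 2 and 3, against 127, 138 and 127.6 FPKM in controls 1, 2 and 3, with every mutant below every control. Beside Upk3a, Fam118a had 17.8, 7.87 and 8.54 FPKM in mutants 1, 2 and 3, against 9.60, 9.13 and 10.3 FPKM in controls 1, 2 and 3, and 5031439G07Rik had 109, 44.5 and 43.3 FPKM in mutants, against 41.7, 38.2 and 37.6 FPKM in controls. Krt78, next to Krt8, and Krt9, next to Krt19, stayed under 0.12 FPKM in every library. These neighbours were looked at after the values of the members were seen.

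Krt14, the basal type I keratin that pairs with Krt5, had 81.4, 39.3 and 32.3 FPKM in mutants 1, 2 and 3, against 57.8, 57.6 and 59.1 FPKM in controls 1, 2 and 3. Mutant 1 was above all controls for Krt14 and below them for Krt5, and was likewise the highest mutant for Krt18.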
